A study of Mus musculus with 8 samples.

Results

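The 10 genes for extracellular Wnt antagonists and for a Dickkopf receptor described here were followed in mouse cochlear cells sorted at postnatal day 1 (P1) and postnatal day 6 (P6). They were Frzb, Sfrp1, Sfrp2, Sfrp4, Sfrp5, Wif1, Dkk1, Dkk2, Dkk3 and Kremen1. The genes were chosen by name and role, with earlier results of these data known, and are 10 of the 36536 genes with counts. The cells came from freshly dissected, uncultured cochleas of B6;FVB-Tg(Lfng-EGFP)HM340Gsat/Mmucd mice, and all groups carry this bacterial artificial chromosome transgene, in which Lfng regulatory sequence drives EGFP. Fluorescence sorting gave GFP+ and GFP- cells at each age, with 2 libraries in each of the 4 groups (P1 GFP+, P1 GFP-, P6 GFP+ and P6 GFP-). According to the study's methods the transgene marks border, inner phalangeal, outer pillar and Deiters' cells but not inner pillar cells, and the brightest cells were kept. Cells of weak GFP signal were not collected, so GFP- cells are a mixture of cell types but not of every remaining cell of the dissected tissue. The dissection differed with age, since the stria vascularis, the lateral wall and Reissner's membrane were taken away at P1 but partly left at P6. An age difference within GFP- cells and this difference in dissection cannot be told apart.

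Wnt proteins signal through Frizzled receptors, and the canonical branch also uses the co-receptors Lrp5 and Lrp6. Secreted Frizzled-related proteins (Frzb and the Sfrp genes) and Wnt inhibitory factor (Wif1) bind Wnts outside the cell. Dickkopf proteins such as Dkk1 and Dkk2 bind the Lrp co-receptors, Kremen1 is a transmembrane receptor for them and is not itself secreted, and Dkk3 is a divergent Dickkopf relative. Canonical Wnt signalling is known to promote the division of Lgr5-expressing supporting cells, the non-sensory cells that surround hair cells, in the newborn cochlea.

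Libraries held 17769024 to 67695039 reads counted on genes. Levels are given as CPM (reads counted on a gene, scaled to a common total of gene counts per library), with mean ± SD over the 2 libraries of a group, and as CPM per kilobase of exon where genes are compared with each other. With 2 libraries per group, which the labels number without naming separate animals, p-values measure the spread between these libraries, which may be technical. Lfng checked the sort: it stood at 2365 to 3755 CPM in the GFP+ libraries and at 17.2 to 45.8 CPM in the GFP- libraries. Of 10 supporting cell markers, 9 at P1 (all but Slc1a3) and 10 at P6 were higher in both GFP+ than in both GFP- libraries, and so were 6 and 7 of 8 hair cell markers. The summed hair cell markers were 704 and 811 CPM in P1 GFP+ against 473 and 439 CPM in P1 GFP-, and 442 and 518 CPM in P6 GFP+ against 349 and 388 CPM in P6 GFP-. Myo6 was the largest part of these sums, at 442 and 476 CPM in P1 GFP+ against 406 and 348 CPM in P1 GFP-. Otof, Pou4f3, Gfi1 and Lhx3 were further apart at P1, with Otof at 151 and 191 CPM against 18.2 and 16.6 CPM. Tmc1 and Pvalb overlapped at P1. One library stood apart. P6 GFP+ replicate 2 held more RNA typical of GFP- cells than replicate 1, with 711 of 773 genes called over 16-fold lower in P1 GFP+ than in P1 GFP- being higher in it, by a median of 0.995 on the log2 scale. Its summed supporting cell markers were 0.724 times those of replicate 1, and the sums of its mesenchyme (2.00 times), endothelial (3.88 times), Schwann (1.90 times) and cartilage and bone (1.65 times) markers were larger. Results that rest on this library are given with and without it. Leaving out a library leaves 1 in its group. The spread in such a fit comes from the other groups, so its p-values do not measure that group's spread.

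The members are described in 3 sets. Sfrp1, Kremen1, Frzb and Dkk3 made up most of the summed level in GFP+ cells. They also held much of it in GFP- cells, where Dkk3 ranked first, with 30.9% of the sum at P1 and 22.1% at P6. Sfrp2, Wif1 and Sfrp4 were higher in GFP- than in GFP+ cells at both ages. Dkk1, Dkk2 and Sfrp5 were low throughout, though per kilobase Sfrp4 lay below Dkk2 in every group but P6 GFP-. On the CPM per kilobase scale, the 10 genes summed to 635 and 673 in P1 GFP+, 136 and 186 in P1 GFP-, 328 and 340 in P6 GFP+, and 190 and 179.7 in P6 GFP-. The total in GFP+ cells was thus lower at P6 than at P1 in both libraries, while the GFP- totals of the 2 ages overlapped. In P1 GFP+ cells the order per kilobase was Sfrp1 (296), Kremen1 (173), Frzb (98.8) and Dkk3 (74.0), with no overlap between neighbours. In P6 GFP+ cells Kremen1 (169.9) came before Sfrp1 (104.8), and Frzb (21.9) and Dkk3 (20.1) overlapped. In P1 GFP- cells Dkk3 (49.7), Sfrp2 (37.7) and Sfrp1 (33.3) led, and each overlapped the next. In P6 GFP- cells Dkk3 (40.8) was followed by Wif1 (38.3), Kremen1 (28.6) and Frzb (24.1), which did not overlap. Dkk1 was the lowest member in 3 groups, and Sfrp4 was the lowest in P1 GFP+ cells.

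**Figure D1:**
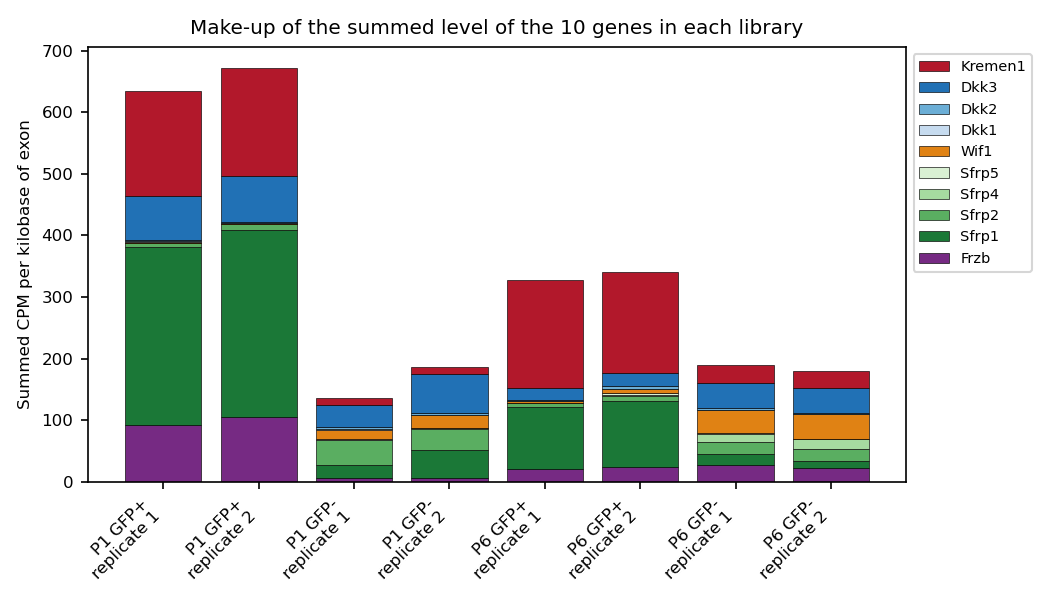
Stacked bars give, for each of the 8 libraries (x axis), the summed level of the 10 genes in CPM per kilobase of exon (y axis, from 0), divided by gene. The 2 P1 GFP+ bars reach 635 and 673, the P6 GFP+ bars 328 and 340, and the GFP- bars lie between 136 and 190.

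**Figure D2:**
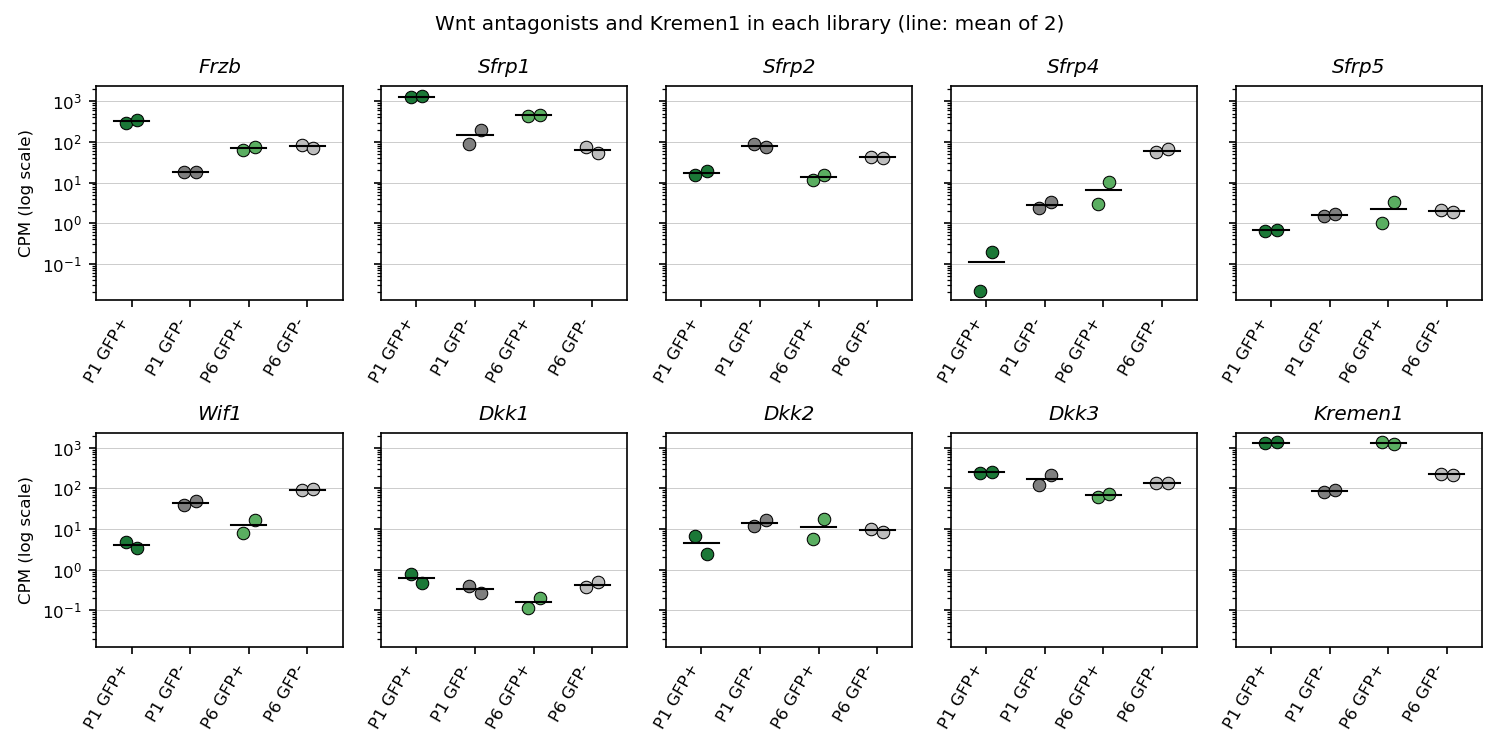
Each panel plots 1 gene, with CPM on a log axis (y) for the 4 groups (x), each point being 1 library and each line the mean of 2. Frzb is 300.1 and 339.7 CPM in P1 GFP+ and 64.8 to 86.5 CPM in all P6 libraries, whereas Kremen1 is 1266 to 1371 CPM in all 4 GFP+ libraries.

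Frzb (ENSMUSG00000027004, mm9 chr2:80252127-80287782, minus strand) encodes a secreted Frizzled-related protein. Its level was 300.1 and 339.7 CPM in P1 GFP+, 17.9 and 18.7 CPM in P1 GFP-, 64.8 and 76.7 CPM in P6 GFP+, and 86.5 and 69.5 CPM in P6 GFP-. The sorted populations were widely apart at P1 and overlapped at P6. At P1 Frzb was 18.8-fold higher in GFP+ cells (log2 fold change 4.23 ± 0.10 SE, adjusted p = 9.99e-06, edgeR quasi-likelihood test with Benjamini-Hochberg adjustment over all genes, as for every adjusted p here unless another tool is named). At P6 the log2 ratio of GFP+ to GFP- was -0.15 (95% interval -0.60 to 0.30, adjusted p = 0.570). The change came from both sides, since Frzb fell 4.24-fold in GFP+ cells between P1 and P6 (log2 -2.08 ± 0.14, adjusted p = 0.00273) and rose 4.88-fold in GFP- cells (log2 2.29 ± 0.15, adjusted p = 0.000387). The change in GFP+ cells was -2.18 on the log2 scale without P6 GFP+ replicate 2. The fall in GFP+ cells and the rise in GFP- cells were called under every alternative run. In bulk samples, fewer cells of a type and less RNA per cell cannot be told apart.

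The start region of Frzb is shown because this member had the largest enrichment in GFP+ cells at P1 and the largest shift of its ratio with age, and that of Wif1, described below, as a member with the opposite P1 direction. RefSeq start regions (250 bases before to 50 after the start, GRCm38.p6, a later build than the mm9 counts) were matched for 6 of the 10 members, namely Frzb, Sfrp2, Sfrp5, Wif1, Dkk1 and Dkk2. Capitals mark the TCF/LEF core (CTTTGA, here as its reverse complement TCAAAG) and the RBPJ core (TGGGAA), read on both strands. TCF/LEF factors are the nuclear partners of canonical Wnt signalling and RBPJ is that of Notch signalling.
Frzb, chr2:80447347-80447646, minus strand: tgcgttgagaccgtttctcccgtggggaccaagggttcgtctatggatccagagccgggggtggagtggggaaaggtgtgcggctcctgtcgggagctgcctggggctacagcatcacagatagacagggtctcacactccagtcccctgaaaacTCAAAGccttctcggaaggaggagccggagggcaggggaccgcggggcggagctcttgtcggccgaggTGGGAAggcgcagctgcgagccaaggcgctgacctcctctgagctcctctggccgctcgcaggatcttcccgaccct
Wif1, chr10:121033754-121034053, plus strand: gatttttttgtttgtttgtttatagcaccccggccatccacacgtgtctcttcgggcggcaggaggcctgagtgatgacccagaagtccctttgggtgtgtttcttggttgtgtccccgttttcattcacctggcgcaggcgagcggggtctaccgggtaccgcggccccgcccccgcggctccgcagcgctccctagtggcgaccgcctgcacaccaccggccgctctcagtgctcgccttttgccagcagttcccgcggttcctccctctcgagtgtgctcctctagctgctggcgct
The Frzb region held 1 TCF/LEF core at base 156 and 1 RBPJ core at base 224, counted from the 5′ end. Dkk1 held 2 TCF/LEF cores, and neither core was found in the regions of Sfrp2, Sfrp5, Wif1 and Dkk2. Of 32851 start regions of the same length, 16% held the TCF/LEF core and 25.6% the RBPJ core. A match describes letters only.

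Sfrp1 (ENSMUSG00000031548, mm9 chr8:24521974-24560104, plus strand), another Frizzled-related antagonist, was the most abundant member per kilobase in P1 GFP+ cells. It was measured at 1258 and 1332 CPM in P1 GFP+, 91.4 and 200.2 CPM in P1 GFP-, 444 and 472 CPM in P6 GFP+, and 76.7 and 53.5 CPM in P6 GFP-. Every GFP+ library lay above every GFP- library at both ages, and P6 GFP+ lay below P1 GFP+. Sfrp1 was 9.55-fold higher in GFP+ cells at P1 (log2 3.26 ± 0.37, adjusted p = 0.000732) and 7.0-fold higher at P6 (log2 2.81 ± 0.25, adjusted p = 0.00168). Without P1 GFP- replicate 2 the P1 value was 3.92 on the log2 scale. It fell 2.65-fold in GFP+ cells with age (log2 -1.41 ± 0.15, adjusted p = 0.00606). Without P1 GFP+ replicate 2 this call was lost (log2 -1.39, adjusted p = 0.0639). In GFP- cells the P6 to P1 log2 ratio was -0.97 and not called (95% interval -1.80 to -0.13, adjusted p = 0.102). The 2 P1 GFP- libraries differed 2.19-fold for this gene, and without replicate 1, the lower of them, the age ratio was -1.44. This age ratio was called without the filter on low counts (-0.94, adjusted p = 2.34e-10). For many members that fit gave far smaller p-values at nearly unchanged log2 values. For Sfrp1 at P1 it gave 3.24 (adjusted p = 9.06e-132) against 3.26 (adjusted p = 0.000732). The 6 neuron markers also differed between the 2 P1 GFP- libraries, all being higher in replicate 2, with sums of 154 and 526 CPM. Of the 10 supporting cell markers, all but Slc1a3 were likewise higher in replicate 2, with Lfng at 17.2 and 32.5 CPM. The part of either list in the Sfrp1 difference was not tested.

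Sfrp2 (ENSMUSG00000027996, mm9 chr3:83570243-83578238, plus strand) stood at 15.4 and 19.4 CPM in P1 GFP+, 88.4 and 74.0 CPM in P1 GFP-, 11.5 and 15.7 CPM in P6 GFP+, and 42.3 and 41.4 CPM in P6 GFP-. GFP- cells held more of it at both ages without overlap, and the GFP+ libraries of the 2 ages overlapped. It was 4.36-fold lower in GFP+ cells at P1 (log2 -2.12 ± 0.14, adjusted p = 0.000102) and 3.09-fold lower at P6 (log2 -1.63 ± 0.20, adjusted p = 0.00410). It fell 1.70-fold in GFP- cells with age (log2 -0.76 ± 0.13, adjusted p = 0.00840), a call lost without P6 GFP- replicate 1 (adjusted p = 0.0523) or replicate 2 (adjusted p = 0.0617). In GFP+ cells the age ratio was -0.26 (adjusted p = 0.416), and it was -0.46 without P6 GFP+ replicate 2. The antisense gene Gm16790 shares 347 exon bases (16.1%) with Sfrp2, and library preparation did not mark strand, so reads in the shared stretch cannot be told apart. Gm16790 received 188 counts over all 8 libraries.

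Sfrp4 (ENSMUSG00000021319, mm9 chr13:19714973-19724863, plus strand) had the steepest age difference of the members. It gave 1 and 5 reads (0.0218 and 0.201 CPM) in P1 GFP+, 2.32 and 3.28 CPM in P1 GFP-, 2.93 and 10.4 CPM in P6 GFP+, and 55.7 and 65.5 CPM in P6 GFP-. P1 GFP+ cells were close to the limit of detection, P6 GFP- cells were the highest group, and the intermediate groups, P1 GFP- and P6 GFP+, overlapped. It rose 24.3-fold in GFP- cells between P1 and P6 (log2 4.61 ± 0.20, adjusted p = 7.25e-05). It also rose in GFP+ cells (log2 6.23 ± 1.03, adjusted p = 0.0179), from 6 reads in all at P1 to 363 at P6, a summed CPM ratio of 89.8 with a 95% counting interval of 40.9 to 246. Without P6 GFP+ replicate 2, which held 3.56 times the Sfrp4 level of replicate 1, the rise was 5.13. Leaving out each of the 4 GFP+ libraries in turn gave 5.13 to 8.07. Sfrp4 was lower in GFP+ than in GFP- cells at P1 (log2 -4.83 ± 0.68, adjusted p = 0.00178) and at P6 (log2 -3.17 ± 0.54, adjusted p = 0.010). The P1 value was -3.70 without P1 GFP+ replicate 1 and -6.72 without replicate 2, and the P6 value was -2.52 without P6 GFP+ replicate 1 and -4.35 without replicate 2. The 7 mesenchyme markers, of which 6 were higher in P6 GFP+ replicate 2 than in replicate 1 and none was at 0 in any library, summed to 498 and 444 CPM in P1 GFP+, 1759 and 3515 CPM in P6 GFP+, and 13715 to 18904 CPM in the GFP- libraries. The 6 cartilage and bone markers, all higher in P6 GFP+ replicate 2 than in replicate 1, were also all higher in P6 than in P1 GFP- libraries. They summed to 5665 and 7112 CPM in P1 GFP+ and 6090 and 10052 CPM in P6 GFP+. In GFP- cells they summed to 18678 and 18508 CPM at P1 and 44972 and 41348 CPM at P6. The part of either list in the rise within GFP+ cells was not tested.

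Sfrp5 (ENSMUSG00000018822, mm9 chr19:42272461-42276742, minus strand) was low in all groups, with 0.655 and 0.683 CPM in P1 GFP+, 1.5 and 1.68 CPM in P1 GFP-, 1.01 and 3.38 CPM in P6 GFP+, and 2.09 and 1.85 CPM in P6 GFP-. It was 2.22-fold lower in GFP+ cells at P1 (log2 -1.15 ± 0.30, adjusted p = 0.0210), a call that was lost without either P1 GFP+ library (adjusted p = 0.139 without replicate 1 and 0.122 without replicate 2), with the DESeq2 test (adjusted p = 0.0654) and with all 8 libraries in the fit (adjusted p = 0.0932). At P6 the log2 ratio was 0.18 with a 95% interval of -1.17 to 1.54 (adjusted p = 0.827), and it turned to -0.94 (adjusted p = 0.0907) without P6 GFP+ replicate 2. Its age ratio in GFP+ cells was 1.82 (adjusted p = 0.0923), or 0.72 (adjusted p = 0.271) without that library. The same ratio was 2.40 without P6 GFP+ replicate 1. It was called without the filter on low counts (1.81, adjusted p = 0.00372) and with all 8 libraries in the fit (1.84, adjusted p = 0.0322).

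Wif1 (ENSMUSG00000020218, mm9 chr10:120471016-120537706, plus strand) was a gene of GFP- cells at both ages. Its level was 4.80 and 3.41 CPM in P1 GFP+, 38.3 and 48.3 CPM in P1 GFP-, 7.82 and 16.7 CPM in P6 GFP+, and 90.5 and 95.5 CPM in P6 GFP-. The 4 groups did not overlap, and both populations held more Wif1 at P6 than at P1. Wif1 was 9.63-fold lower in GFP+ cells at P1 (log2 -3.27 ± 0.22, adjusted p = 0.000101) and 7.58-fold lower at P6 (log2 -2.92 ± 0.35, adjusted p = 0.00401). With age it rose 2.45-fold in GFP- cells (log2 1.29 ± 0.13, adjusted p = 0.00152). It rose 3.15-fold in GFP+ cells (log2 1.66 ± 0.42, adjusted p = 0.0485). That last call was lost with library totals as the scale (adjusted p = 0.0584), with the replicate number as a block (adjusted p = 0.0519) and without P1 GFP+ replicate 2 (adjusted p = 0.238). Replicate 2 of P6 GFP+ held 2.14 times the Wif1 level of replicate 1. Without it the rise was 1.02 and the P6 log2 ratio of GFP+ to GFP- was -3.55. The part of the mesenchyme markers given for Sfrp4 was not tested here either.

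Dkk1 (ENSMUSG00000024868, mm9 chr19:30620353-30624155, minus strand), a classical Lrp-binding antagonist, was near the detection limit. Its CPM values were 0.764 and 0.482 in P1 GFP+, 0.396 and 0.269 in P1 GFP-, 0.113 and 0.201 in P6 GFP+, and 0.373 and 0.487 in P6 GFP-. These values rest on 2 to 35 reads per library, and none of the 4 comparisons between groups called a difference (unadjusted p of 0.0199 to 0.240). The nearest was P6 against P1 in GFP+ cells (log2 -1.84 ± 0.56, adjusted p = 0.0745). This value was -2.37 without P6 GFP+ replicate 2, and it was called with all 8 libraries in the fit (log2 -1.85, adjusted p = 0.0411). The P1 log2 ratio of GFP+ to GFP- was 1.08, and 1.34 without P1 GFP- replicate 1.

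Dkk2 (ENSMUSG00000028031, mm9 chr3:131748256-131843257, plus strand), which acts on the same co-receptors, varied widely between replicates of GFP+ cells. It stood at 6.57 and 2.49 CPM in P1 GFP+, 12 and 16.5 CPM in P1 GFP-, 5.57 and 17.5 CPM in P6 GFP+, and 9.83 and 8.63 CPM in P6 GFP-. At P1 both GFP+ libraries lay below both GFP- libraries, and at P6 the GFP+ libraries lay on either side of the GFP- ones. Dkk2 was 2.83-fold lower in GFP+ cells at P1 (log2 -1.50 ± 0.45, adjusted p = 0.0318), a call lost with all 8 libraries in the fit (adjusted p = 0.0542) and without P1 GFP+ replicate 2 (log2 -0.98, adjusted p = 0.0571), while without replicate 1 the value was -2.43. At P6 its log2 ratio was 0.32 (95% interval -0.92 to 1.56, adjusted p = 0.661). Its direction was decided by 1 library, with -0.71 without P6 GFP+ replicate 2 and 0.95 without P6 GFP+ replicate 1. Its age ratio in GFP+ cells was 1.41 (adjusted p = 0.190), or 0.35 (adjusted p = 0.372) without P6 GFP+ replicate 2. It was 1.93 without P6 GFP+ replicate 1 and 2.32 without P1 GFP+ replicate 1, and it was called without the filter on low counts (adjusted p = 0.00303). In GFP- cells the Dkk2 age ratio was -0.43, and -0.66 without P1 GFP- replicate 1.

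Dkk3 (ENSMUSG00000030772, mm9 chr7:119259533-119302571, minus strand) changed sides with age. Its level was 244 and 254 CPM in P1 GFP+, 125 and 209 CPM in P1 GFP-, 61.7 and 73.2 CPM in P6 GFP+, and 140.0 and 134 CPM in P6 GFP-. GFP+ cells were the higher population at P1 and the lower one at P6, without overlap at either age. At P1 Dkk3 was 1.60-fold higher in GFP+ cells (log2 0.68 ± 0.23, adjusted p = 0.0475). This call was lost with DESeq2 size factors (adjusted p = 0.0514), with library totals (adjusted p = 0.0795) and without either P1 GFP+ library (adjusted p = 0.137 without replicate 1 and 0.138 without replicate 2). Without P1 GFP- replicate 1 the P1 value was 0.33, and without P1 GFP- replicate 2 it was 1.08. At P6 Dkk3 was 2.04-fold lower in GFP+ cells (log2 -1.03 ± 0.16, adjusted p = 0.00795), a call lost without P6 GFP- replicate 1 (adjusted p = 0.0771) or replicate 2 (adjusted p = 0.0613). Between the ages it fell 3.46-fold in GFP+ cells (log2 -1.79 ± 0.13, adjusted p = 0.00288). In GFP- cells its age ratio was -0.09 (95% interval -0.62 to 0.43, adjusted p = 0.802).

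Kremen1 (ENSMUSG00000020393, mm9 chr11:5091555-5161561, minus strand), the Dickkopf receptor, was strongly enriched in GFP+ cells at both ages. It was measured at 1321 and 1363 CPM in P1 GFP+, 83 and 91.6 CPM in P1 GFP-, 1371 and 1266 CPM in P6 GFP+, and 226 and 217 CPM in P6 GFP-. The GFP+ libraries of the 2 ages overlapped, and the GFP- libraries were higher at P6. Kremen1 was 16.5-fold higher in GFP+ cells at P1 (log2 4.05 ± 0.12, adjusted p = 1.09e-05) and 5.93-fold higher at P6 (log2 2.57 ± 0.22, adjusted p = 0.00152). It rose 2.90-fold in GFP- cells (log2 1.54 ± 0.11, adjusted p = 0.000546). In GFP+ cells the age ratio was 0.07 on the log2 scale, with a 95% interval of -0.35 to 0.48 (adjusted p = 0.789), and 0.16 (adjusted p = 0.241) without P6 GFP+ replicate 2.

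At P1, 4 of the 10 members were called higher in GFP+ cells, namely Frzb, Kremen1, Sfrp1 and Dkk3, where 25.5% of all genes tested were called in that direction. Another 5 (Sfrp4, Wif1, Sfrp2, Dkk2 and Sfrp5) were called lower, where 28.1% of all genes were. Called means an adjusted p below 0.05, and all 10 members passed the filter on low counts in each comparison. Sfrp4, with 1 and 5 reads in the P1 GFP+ libraries, passed it here only through P1 GFP- cells. Only a call of lower was therefore open to Sfrp4 at P1. Under the study's p and fold thresholds (p and adjusted p below 0.01 and a fold change above 4), applied here without its expression minimum and its second program, 6 members were called in either direction, against 17.8% of all genes. The median log2 ratio was -0.23 over the members and 0.01 over all genes tested. With all 8 libraries in 1 fit, 3 members rather than 5 were called lower, where 4819 of 19233 genes tested were. Without P1 GFP+ replicate 2 the calls for Dkk2 (log2 -0.98) and Sfrp5 (log2 -1.14) were lost, where fewer of all genes were called as well.

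At P6, 2 members (Sfrp1 and Kremen1) were called higher in GFP+ cells, against 15.5% of all genes, and 4 (Sfrp4, Wif1, Sfrp2 and Dkk3) lower, against 17.9%. The study's thresholds called 3 members, against 7.98% of all genes. The median over the members was -0.59 and that over all genes was -0.02. Without P6 GFP+ replicate 2 more of all genes were called, so a count of members from that fit is not set beside these shares. The log2 ratio of Dkk2 was then -0.71, against 0.32 in the main fit.

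**Figure D3:**
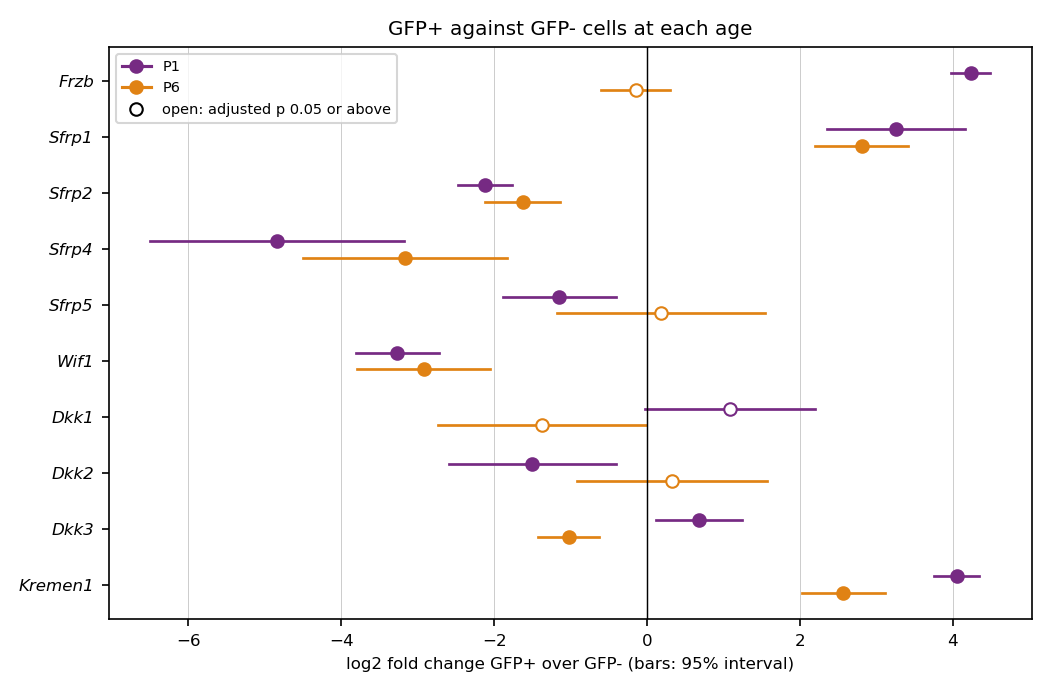
Points give the log2 fold change of GFP+ over GFP- cells (x axis) for each gene (y axis) at P1 (purple) and P6 (orange), with 95% intervals as bars and open points where the adjusted p was 0.05 or above. Frzb moves from 4.23 at P1 to -0.15 at P6, and Dkk3 from 0.68 to -1.03.

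The P1 to P6 comparisons use the same libraries as the GFP+ to GFP- comparisons, so they are not independent of them. In GFP+ cells 3 members fell (Frzb, Dkk3 and Sfrp1), where 8.31% of all genes tested fell, and 2 rose (Sfrp4 and Wif1), where 12.1% of all genes rose. Sfrp4 passed the filter on low counts here only through P6 GFP+ cells, so only a call of a rise was open to it. The study's thresholds called 1 member, Frzb, against 2.56% of all genes. The members' median was -0.10 and that of all genes -0.0024. Without either P6 GFP+ library more of all genes were called, so counts of members from those fits are not set beside these shares. Without P6 GFP+ replicate 2 the log2 changes were -2.18 for Frzb, -1.88 for Dkk3, -1.42 for Sfrp1, 5.13 for Sfrp4 and 1.02 for Wif1. Without P1 GFP+ replicate 2 the calls for Wif1 (1.41) and Sfrp1 (-1.39) were lost, where fewer of all genes were called as well.

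In GFP- cells 4 members rose (Sfrp4, Frzb, Kremen1 and Wif1), where 11.3% of all genes rose, and 1 (Sfrp2) fell, where 7.87% of all genes fell. The study's thresholds called 2 members, Sfrp4 and Frzb, against 1.85% of all genes. The median was 0.54 over the members and -0.02 over all genes. Scaling by library totals in place of TMM gave all genes in this comparison a median of -0.21 (and of -0.10 in the P1 comparison and 0.16 in the interaction below), and left the same 4 members called higher and Sfrp2 lower. Without P1 GFP- replicate 1, where more of all genes were called, the log2 changes were -0.64 for Sfrp2, -1.44 for Sfrp1 and -0.66 for Dkk2. Without either P6 GFP- library the call for Sfrp2 was lost, where fewer of all genes were called as well.

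**Figure D4:**
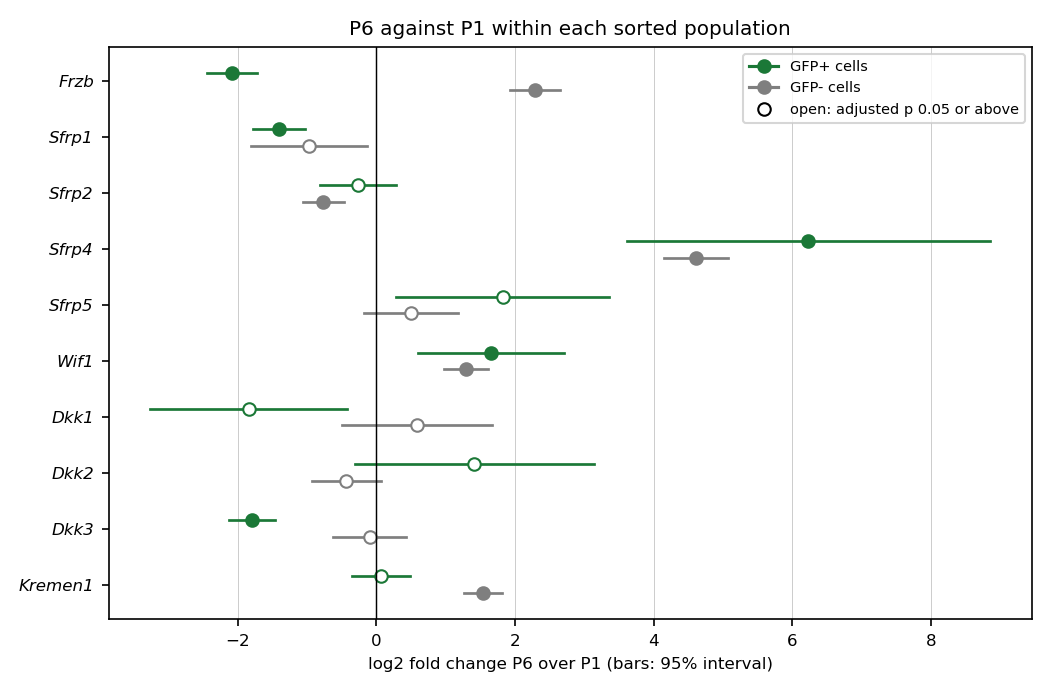
Points give the log2 fold change of P6 over P1 (x axis) for each gene (y axis) in GFP+ cells (green) and GFP- cells (grey), with 95% intervals as bars and open points where the adjusted p was 0.05 or above. Frzb lies at -2.08 in GFP+ and 2.29 in GFP- cells, and Kremen1 at 0.07 and 1.54.

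The difference between the ages in the GFP+ to GFP- ratio was tested directly, as an interaction term over all 8 libraries. The dissection differed with age, so a shift from the GFP- side cannot be told apart from it. For 3 members the ratio was smaller at P6, with a P6 minus P1 difference of -4.40 for Frzb (SE 0.23, adjusted p = 0.000194), -1.72 for Dkk3 (SE 0.32, adjusted p = 0.0193) and -1.49 for Kremen1 (SE 0.21, adjusted p = 0.00735) on the log2 scale, where 2.79% of all genes were called in this direction. These 3 differ in which population moved. Frzb fell in GFP+ and rose in GFP- cells, Dkk3 fell in GFP+ cells with no call in GFP- cells, and Kremen1 rose in GFP- cells with no call in GFP+ cells. No member was called with a larger ratio at P6 by edgeR, against 3.6% of all genes, or by DESeq2, and 1 member, Dkk2, had an unadjusted p of 0.0469 in edgeR. In the other direction Dkk1, a gene of few reads, stood at -2.46 (95% interval -4.09 to -0.83, adjusted p = 0.0840) and was not called. Leaving out each library in turn gave -4.58 to -4.20 for Frzb, -2.05 to -1.36 for Dkk3 and -1.59 to -1.39 for Kremen1. The calls for Dkk3 and Kremen1 were lost without either P1 GFP+ library, and that for Dkk3 without either P6 GFP- library. In each of these fits fewer of all genes were called as well. Without P6 GFP+ replicate 2 the values of Frzb, Dkk3 and Kremen1 were -4.50, -1.82 and -1.41. For the other 7 members, including Sfrp1 (-0.46, 95% interval -1.57 to 0.64) and Wif1 (0.34, 95% interval -0.67 to 1.35), no difference between the ages was called in this fit. Without the filter on low counts, Dkk2 (1.83, adjusted p = 1.13e-05) and Sfrp4 (1.71, adjusted p = 0.0118) were called with a larger ratio at P6. More of all genes were called in that fit as well. Without P6 GFP+ replicate 1 the values were 2.37 for Dkk2 and 1.87 for Sfrp5.

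The genes with the most similar profile were found by the root mean square difference of log2(CPM + 0.5), centred on each gene's mean, over the 8 libraries and 15477 genes of at least 1 CPM. Nearest to Frzb were Tdrd12 (0.295) and Col7a1 (0.368), the collagen of anchoring fibrils, which stood at 421 CPM in P1 GFP+, 34.4 CPM in P1 GFP-, 96.8 CPM in P6 GFP+ and 106 CPM in P6 GFP-. Nearest to Sfrp1 were Ntng2 (0.213), a netrin-G membrane protein, and Klhl14 (0.260). Nearest to Kremen1 were Nptx1 (0.159), a neuronal pentraxin, and Dock5 (0.208), a guanine nucleotide exchange factor, which was at 486 CPM in P1 GFP+, 37.8 CPM in P1 GFP-, 587 CPM in P6 GFP+ and 97.7 CPM in P6 GFP-. Nearest to Dkk3 were Stard5 (0.212), a lipid transfer protein, and Hs3st3b1 (0.219), a heparan sulfate sulfotransferase. Among the GFP- genes, Sfrp2 lay nearest to BB218582 (0.0930) and Pdzrn3 (0.112), Wif1 to Agt (0.157), which encodes angiotensinogen, and Slc7a8 (0.168), an amino acid transporter, and Sfrp4 to Vit (0.293), vitrin of the extracellular matrix, and Scin (0.352), an actin-severing protein. Sfrp5 lay nearest to Otx1 (0.189) and Gimap4 (0.207), and Dkk2 to Lypd2 (0.180) and Slc26a7 (0.216). Dkk1 averaged under 1 CPM and was not compared. Among the members themselves the closest pair was Dkk2 and Sfrp5 (0.477), and these profiles share libraries and depth.

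The rest of the Wnt pathway was read from lists chosen by role. The list of 14 other extracellular inhibitors held secreted proteins and membrane proteins. Of these, 12 were tested at P1, of which 1 (Znrf3, a membrane protein) was higher and 9 lower in GFP+ cells. At P6, 1 was higher and 6 were lower. The share of all genes called was 25.5% higher and 28.1% lower at P1, and 15.5% higher and 17.9% lower at P6. The inhibitors' median log2 ratio was -2.03 at P1 and -1.20 at P6, against 0.01 and -0.02 over all genes. In GFP+ cells 4 of 11 tested rose with age, against 12.1% of all genes. In GFP- cells 4 of 12 rose and 4 fell, against 11.3% and 7.87% of all genes. Igfbp4, an insulin-like growth factor binding protein that also binds Wnt co-receptors, rose in GFP+ cells (log2 3.56 ± 0.39, adjusted p = 0.00646) from 19.0 and 16.6 CPM to 126 and 272 CPM, while GFP- libraries held 632 to 1509 CPM. Apcdd1, a membrane-bound Wnt inhibitor, rose as well (log2 3.36 ± 0.51, adjusted p = 0.0142), from 5.21 and 6.23 CPM to 28.8 and 81.9 CPM, while GFP- libraries held 191 to 430 CPM. The part of the mesenchyme markers given for Sfrp4 in the rises of Igfbp4 and Apcdd1 was not tested. Serpinf1, a secreted serpin, stood at 12.5 and 10.4 CPM in P1 GFP+ against 278 and 312 CPM in P1 GFP-. It was also lower in GFP+ cells at P6 (log2 -3.27 ± 0.60, adjusted p = 0.0120) and rose in GFP- cells with age (log2 1.94 ± 0.16, adjusted p = 0.000748). All 3 were higher in P6 GFP+ replicate 2 than in replicate 1. Without replicate 2 the GFP+ age values were 2.93 for Igfbp4 and 2.47 for Apcdd1, and the P6 ratio of Serpinf1 was -4.42. Without replicate 1 the Serpinf1 ratio was -2.59.

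Among ligands and receptors, the members' binding partners, both directions occurred. Of 11 Wnt ligands tested at P1, 3 were higher and 5 lower in GFP+ cells, and of 12 tested at P6, 2 were higher and 5 lower. The ligands called higher lay near the shares of all genes, 25.5% at P1 and 15.5% at P6, and those called lower compare with 28.1% and 17.9%. Wnt7a was the ligand with the largest enrichment, at 252 and 271 CPM in P1 GFP+ against 2.80 and 9.02 CPM in P1 GFP- (log2 5.53 ± 0.51, adjusted p = 0.000322), and at 209 and 163 CPM against 2.01 and 0.916 CPM at P6 (log2 6.99 ± 0.46, adjusted p = 0.000904). Its P1 value was 4.94 without P1 GFP- replicate 1 and 6.64 without replicate 2, and its P6 value 7.72 without P6 GFP- replicate 1. Wnt6 was lower in P1 GFP+ cells (log2 -5.78 ± 0.34, adjusted p = 6.11e-05, and -6.44 without P1 GFP+ replicate 1). Of 15 Frizzled and other receptors, 5 were higher and 6 lower at P1 (25.5% and 28.1% of all genes), and 2 were higher and 5 lower at P6 (15.5% and 17.9% of all genes), so that the receptors called higher at P6 were near the share of all genes. Fzd4 was measured at 261 and 228 CPM in P1 GFP+ and at 7.47 and 7.19 CPM in P1 GFP- (log2 5.17 ± 0.13, adjusted p = 9.99e-06), and it fell in GFP+ cells with age (log2 -1.23 ± 0.16, adjusted p = 0.0101). Fzd9 rose in GFP- cells (log2 1.84 ± 0.19, adjusted p = 0.00144). Fzd10 was lower in P1 GFP+ cells (log2 -5.91 ± 0.23, adjusted p = 1.87e-05). In GFP- cells 7 of the 15 receptors rose with age, against 11.3% of all genes. In GFP+ cells 3 rose and 2 fell, against 12.1% and 8.31% of all genes.

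Of 8 genes of the secretion and R-spondin system tested, 1 was higher and 5 lower in GFP+ cells at P1, where 25.5% and 28.1% of all genes were. Lgr5, an R-spondin receptor and supporting cell marker, was enriched at P6 (log2 3.27 ± 0.19, adjusted p = 0.000762), at 325 and 296 CPM against 29.4 and 34.7 CPM. The gap was also present at P1, with Lgr5 at 500 and 404 CPM in GFP+ against 37.6 and 41.6 CPM in GFP- cells. Of 9 cytoplasmic transducers, such as Ctnnb1 and Gsk3b, 1 (Apc) was higher in GFP+ cells at P1, against 25.5% of all genes. Of 8 target and feedback genes, 6 were lower in GFP+ cells at P1, against 28.1% of all genes. At P6, 1 (Sp5) was higher and 6 were lower, against 15.5% and 17.9%, and the medians were -2.12 at P1 and -1.90 at P6. Lef1, a nuclear effector and target, stood at 3.29 and 3.33 CPM in P1 GFP+ against 144 and 128 CPM in P1 GFP-. It was also lower in P6 GFP+ cells (log2 -3.24 ± 0.61, adjusted p = 0.0132), at 4.16 and 17.6 CPM against 103 and 104 CPM. That ratio was -2.53 without P6 GFP+ replicate 1 and -4.61 without replicate 2. Ccnd1, the cyclin D1 gene, fell with age in GFP+ cells (log2 -1.23 ± 0.24, adjusted p = 0.0255), a call lost without P1 GFP+ replicate 2, and in GFP- cells (log2 -0.91 ± 0.13, adjusted p = 0.00494). Sp5 fell in GFP- cells (log2 -1.51 ± 0.23, adjusted p = 0.00656), a call lost without either P6 GFP- library.

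**Figure D5:**
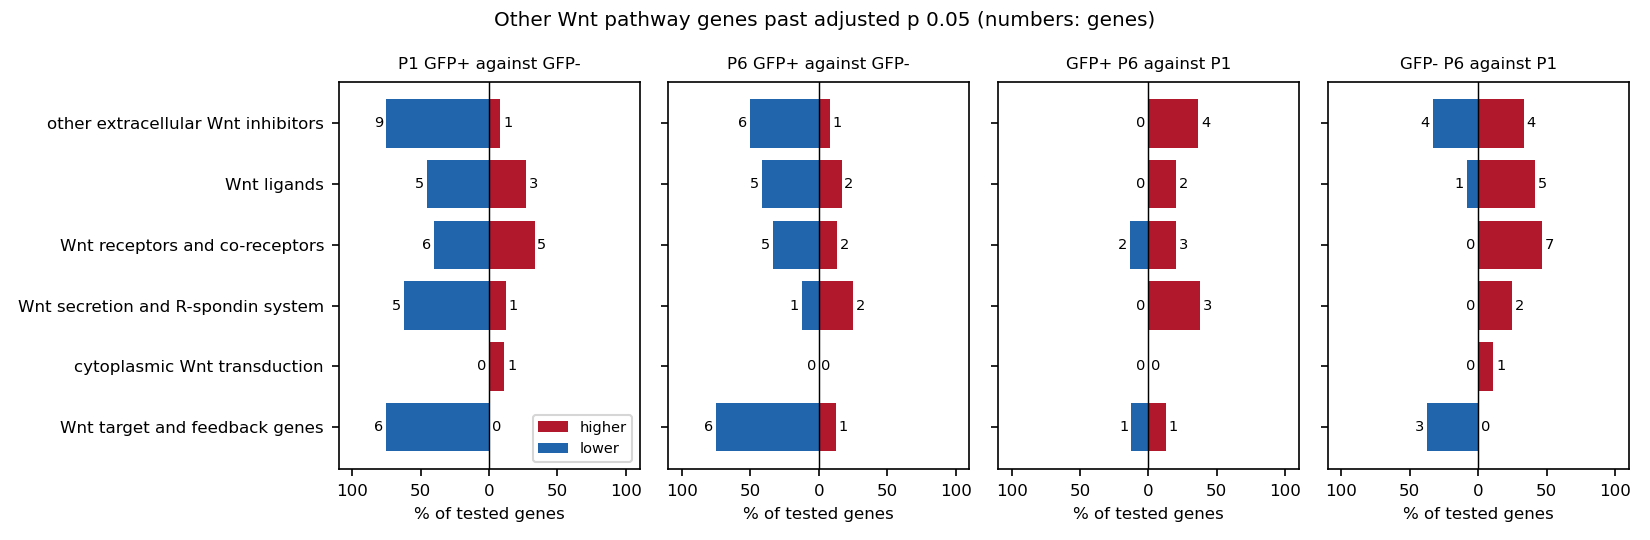
Horizontal bars give, for 6 lists of other Wnt pathway genes (y axis), the percentage of tested genes called higher (red, right) or lower (blue, left) in each of 4 comparisons, with the number of genes printed at each bar. At P1, 9 of 12 genes listed as other extracellular inhibitors (secreted or membrane proteins) and 6 of 8 target and feedback genes are lower in GFP+ cells.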

How the data were processed

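RNA from sorted cochlear cells was sequenced in 8 libraries as paired-end reads from unstranded TruSeq preparations. Per the labels and methods, the authors aligned reads to mm9 with TopHat (1.4.0 in the submitters' processing notes) and counted them per Ensembl gene with HTSeq, and the deposited values are raw counts per gene, 1 file per library. The counting mode is not given in the sources used here. Of the reads listed in each file, 23.8% to 35.3% fell on no gene, on several genes or were not unique, and those rows were left out. The 10 genes and all lists were chosen with earlier results of these data known. Symbols, positions and merged exon lengths came from the Ensembl-based annotation of the mm9 assembly.

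Counts were tested with edgeR 4.0.16 in R 4.3.3 (quasi-likelihood test, TMM scaling, filterByExpr with a minimum count of 10 and a minimum total of 15, Benjamini-Hochberg adjustment over all genes tested). Each of the 4 comparisons used its own 4 libraries, and the interaction used all 8. Fold changes are TMM-scaled, whereas CPM uses each library's gene total. Intervals of a ratio of summed counts are exact and cover counting error only. The statistical steps were tested on simulated data. Replicates were checked for duplicate libraries, and their counts differed by 16.3 to 62.7 times sampling noise (chi-square per degree of freedom). Alternatives were DESeq2 1.42.0 size factors and test, library totals, no filter, a replicate block, all 8 libraries in 1 fit, each library left out and the study's p and fold thresholds, without its expression minimum and second program. Of other pathway genes, the text names the 2 with the largest called change per direction and comparison with at least 5 CPM in the higher group, and further genes named by a count of 1 were chosen after their values were seen.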

Additional observations from a re-analysis of the deposited data

Results flagged for a closer look

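The ratio of GFP+ to GFP- cells differed between P1 and P6, by the interaction term of the edgeR quasi-likelihood test over all genes, for 3 of the 10 members. The P6 log2 ratio minus the P1 log2 ratio was -4.40 for Frzb (from 4.23 to -0.15, adjusted p = 0.000194), -1.72 for Dkk3 (from 0.68 to -1.03, adjusted p = 0.0193) and -1.49 for Kremen1 (from 4.05 to 2.57, adjusted p = 0.00735). The same test picked out 5 of the other pathway genes named above. The difference was -2.69 for Fzd4 (adjusted p = 0.00141) and -2.42 for Fzd9 (adjusted p = 0.00531), both Wnt receptors whose enrichment in GFP+ cells was smaller at P6. It was 2.27 for Igfbp4 (adjusted p = 0.0250), 2.88 for Fzd10 (adjusted p = 0.0250) and 1.90 for Sp5 (adjusted p = 0.0284). Without P6 GFP+ replicate 2 the values of Igfbp4 and Fzd10 were 1.64 and 1.99. The calls for Igfbp4, Fzd10 and Sp5 were lost with the replicate number as a block and without either P1 GFP+ library. They were also lost without P6 GFP- replicate 1 or 2. Leaving out P1 GFP- replicate 2 ended the calls for Igfbp4 and Fzd10, and leaving out P1 GFP- replicate 1 ended that for Sp5. In each of these fits fewer of all genes were called as well. All these values come from 2 libraries per group, and the difference in dissection between the ages cannot be told apart from a shift on the GFP- side.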

How the results depend on the processing

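Of the members' log2 values, 205 of 240 kept their direction and side of the threshold when a library was left out and 283 of 300 did so under the other settings. Leaving out a library changed the number of members called, and the share of all genes called changed in those fits too. Those counts of members are therefore not set beside the shares of the main fits. In these fits the lone library of a group was assumed to vary like the others. The study's p and fold thresholds gave 3 members lower at P1, 1 lower at P6, 0 higher and 1 lower with age in GFP+ cells, and 2 higher and 0 lower with age in GFP- cells. All 8 libraries in 1 fit gave 3 lower at P1. Library totals gave 1 member higher with age in GFP+ cells. Without the filter on low counts 4 were higher with age in GFP+ cells, 2 were lower with age in GFP- cells, and 2 ratios were larger at P6. The calls added by that fit came with smaller p-values and not with larger differences. The age-dependent ratio of Dkk2 was 1.83 (adjusted p = 1.13e-05) in it and 1.82 (adjusted p = 0.227) in the main fit. Scaling by TMM gave summed levels of 349 CPM per kilobase in P6 GFP+ and 198 in P6 GFP-, and changed single levels by -8.28% to 7.41%.

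Uncalled values changed direction for Frzb at P6 (0.078 without P6 GFP- replicate 1, in a range from -0.31 over the libraries left out), Sfrp5 at P6 (-0.0015 with the replicate block and -0.94 without P6 GFP+ replicate 2, up to 0.80 without replicate 1), Dkk2 at P6 (-0.71 without P6 GFP+ replicate 2, up to 0.95 without replicate 1), Kremen1 with age in GFP+ cells (-0.026 with library totals and -0.021 without P6 GFP+ replicate 1, up to 0.16), Dkk3 with age in GFP- cells (0.31 without P1 GFP- replicate 2, down to -0.43), and the age-dependent ratios of Sfrp1 (0.029 without P1 GFP- replicate 1, down to -1.05) and Wif1 (-0.30 without P6 GFP+ replicate 2, up to 0.73). Beyond the library left out, causes were not tested. Same-numbered libraries did not pair, as correlations of their deviations were 0.0214, 0.0855, -0.0835 and -0.277, and the replicate block left 1 member, Sfrp4, higher with age in GFP+ cells in place of 2. For age in GFP- cells the crossed pairing, added after seeing the data, called 4 members higher and 2 (Sfrp1 and Sfrp2) lower. Dkk1 rested on 2 to 35 reads per library and Sfrp4 in P1 GFP+ cells on 1 and 5 reads, and each group had 2 libraries.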
